A study of Homo sapiens with 6 samples.

Results

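Integrins are cell-surface receptors, each made of an alpha chain and a beta chain, that hold a cell to the matrix around it. Talins and kindlins bind the beta chain's tail and switch the receptor on. The complex of integrin-linked kinase (ILK), a PINCH protein and a parvin, together with vinculin, alpha-actinins, tensins and zyxin, then couples it to actin, while focal adhesion kinase (FAK) and the adaptors paxillin and p130Cas carry signals from the contact site. In the liver, hepatic stellate cells turn into matrix-producing myofibroblasts after injury, and integrins are known both as their receptors for that matrix and, for the αv integrins, as activators of latent TGF-β. Described here are 37 genes of this system, 18 integrin chains and 19 cytoplasmic proteins, out of 58243 gene identifiers measured. They were taken by symbol from a fixed list whose rule did not use their values, but which was chosen with earlier results of these data known.

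RNA was sequenced from LX2, an established line of activated human hepatic stellate cells labelled wild type, grown in DMEM with FCS on plastic. Over 48 h, cells received a small interfering RNA directed at AURKA, the gene of the mitotic kinase Aurora A (siAURKA, 3 libraries), or the control small interfering RNA siNC (3 libraries). The question the labels give is how loss of AURKA changed gene expression in these cells. All cells come from 1 line and grew on plastic rather than in tissue, and the labels do not say whether the replicates are separate cultures, so the p-values reflect the scatter among these 6 libraries alone, part or all of which could be technical. Levels are in CPM, that is, counts relative to the library's total after TMM scaling, and every log2 fold change puts siAURKA over siNC and has its standard error (SE). Unless the replicate number is said to be in the fit, the SE also holds the differences between replicate numbers.

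AURKA had 49.8, 47.0 and 51.1 CPM in siAURKA libraries 1, 2 and 3, against 135.8, 128 and 95 CPM in siNC libraries 1, 2 and 3, so every siAURKA library was below every siNC library. By edgeR's quasi-likelihood test the log2 fold change of -1.28 (SE 0.28) had an adjusted p of 0.9999, and DESeq2 gave an adjusted p of 0.0314. Column totals ran from 33196829 to 53357402 in siAURKA and from 23366242 to 41764470 in siNC. Of 10 stellate cell and myofibroblast markers, the collagen gene COL1A1 stood at 1319 to 1632 CPM in siAURKA and 1071 to 1880 CPM in siNC. COL1A2 had 6.9 to 11.9 CPM in siAURKA and 2.86 to 5.15 CPM in siNC, and ACTA2 had 18.7 to 20.4 and 11.2 to 17.3 CPM. For these last 2 of the 9 markers tested every siAURKA library was above every siNC library, as for 3.33% of all genes tested. The groups overlapped for the other stellate cell and myofibroblast markers tested. DES stayed below 1 CPM, the stellate vitamin A enzyme LRAT was at or near 0 in all libraries, and the hepatocyte genes ALB, APOB and TTR were at 0. Summed leukocyte markers held 60.4 to 107 CPM in siAURKA and 51.7 to 129 CPM in siNC, of which CD68, a gene of lysosomes, made up most. Cholangiocyte markers summed to 40.7 to 62.6 CPM in siAURKA and 46.4 to 97.7 CPM in siNC, mostly SOX9. Of the 3 tested, KRT7 had 2.92 to 4.12 CPM in siAURKA and 4.61 to 6.59 CPM in siNC. Every siAURKA library was below every siNC library for KRT7, as for 2.52% of all genes tested. Endothelial markers summed to 7.16 to 14.2 CPM in siAURKA and 4.10 to 9.19 CPM in siNC. Same-numbered siAURKA and siNC libraries deviated from their group means together. The siNC library 2 was the shallowest and stood apart, with the 37 genes summing to 11060 CPM against 6884.7 and 7096.4 CPM in the other siNC libraries, and with the nuclear RNA MALAT1 at 72.5 CPM against 145 CPM or more elsewhere.

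The control cells expressed the chains of 12 of the 17 known heterodimers considered, counting a heterodimer as expressed where both chains reached 1 CPM in each siNC library. For collagen these were α1β1, α2β1 and α11β1. For laminin they were α3β1, α6β1, α7β1 and α6β4. For fibronectin, vitronectin and other ligands with an RGD motif they were α5β1, αvβ1, αvβ3 and αvβ5, and for fibronectin's CS1 site and VCAM1 it was α4β1. The remaining α10β1, α8β1, αvβ6, αvβ8 and α9β1 did not pass, each for the chain other than β1 or αv. The siAURKA libraries passed 12 heterodimers too. At 5 CPM, 8 siNC heterodimers were left, and without siNC library 2, in which ITGB8 was at 0, there were 13. RNA of both chains does not show that the receptor is at the surface.

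Per kb of exon, ITGA5, the alpha chain of the classical fibronectin receptor, stood highest among alpha chains, at 91.4 ± 27.5 CPM per kb in siAURKA and 119.3 ± 60.5 CPM per kb in siNC (SD, n = 3 each). ITGA3, whose product with β1 binds laminin, came next at 45.5 ± 14.7 CPM per kb in siAURKA and 67.7 ± 22.4 CPM per kb in siNC. The siNC ranges of these chains, 67.3 to 186 for ITGA5 and 48.4 to 92.3 for ITGA3, overlapped, while ITGA7 lay entirely below at 8.12 to 10.6. In siNC, ITGA7, ITGA6, ITGA2 and ITGAV averaged 9.24, 7.56, 5.44 and 4.01 CPM per kb and overlapped in range, ITGA4, ITGA1 and ITGA11 averaged 0.542, 0.533 and 0.281, and ITGA10 and ITGA9 averaged 0.104 and 0.0218. ITGA5 and ITGA3 made up 55.9% and 27.7% of the summed alpha chain level per kb in siAURKA and 53.4% and 31.5% in siNC.

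Among beta chains, ITGB1, the partner of most alpha chains, averaged 99.6 ± 55.0 CPM per kb in siAURKA and 80.8 ± 44.1 CPM per kb in siNC, or 86.8% of the summed beta chain level in siAURKA and 79.5% in siNC. ITGB5 followed with 8.83 ± 1.86 CPM per kb in siAURKA and 12.1 ± 4.58 CPM per kb in siNC. ITGB4 and ITGB3 averaged 2.51 and 2.19 CPM per kb in siNC with overlapping ranges, and ITGB8 and ITGB6 stayed at 0.0909 and 0.0407. The relation of the chains to one another moved with the library number as well: ITGB1 held 92.1%, 82.7% and 85.6% of the beta level in siAURKA libraries 1, 2 and 3, against 90.3%, 64.4% and 83.6% in siNC libraries 1, 2 and 3, and ITGB5 held 27% in siNC library 2 against 5.83% in siNC library 1.

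**Figure D1:**
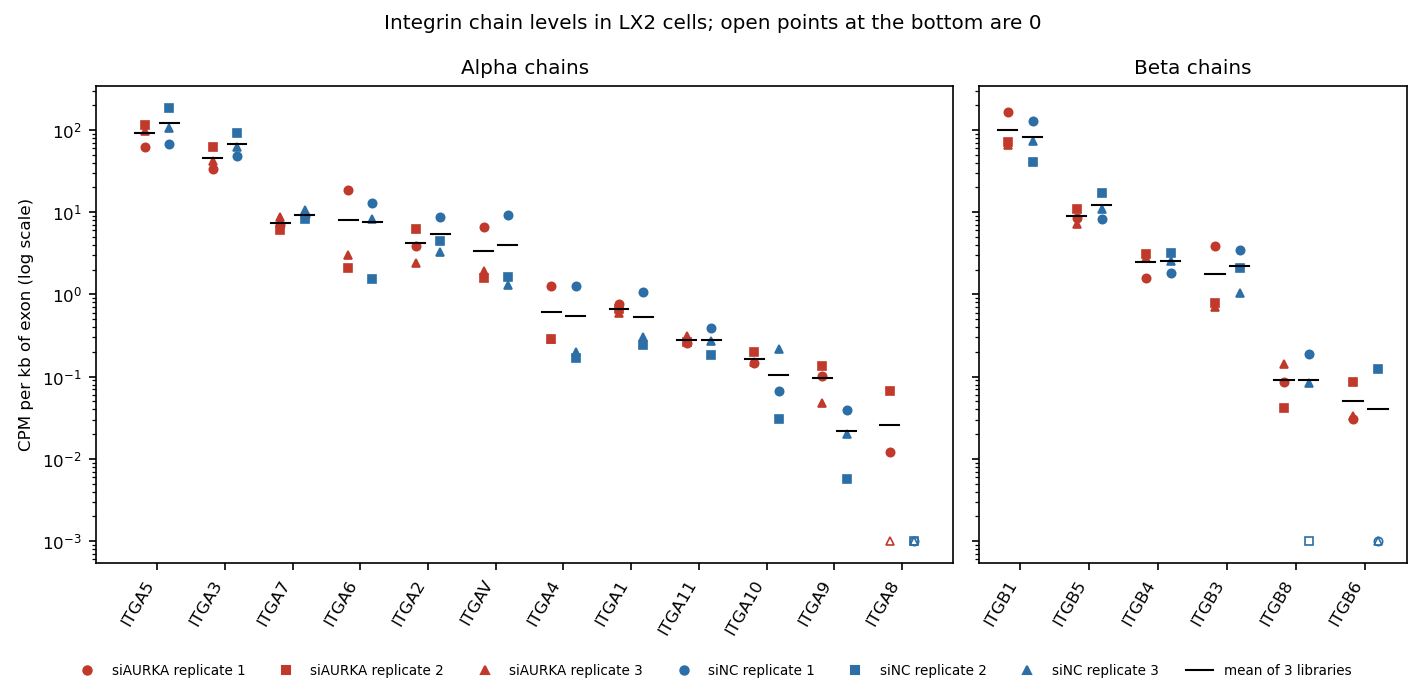
Level of the 12 alpha chains (left) and 6 beta chains (right) in each library, in TMM-normalised CPM per kb of exon on a log axis, siAURKA in red and siNC in blue, with marker shapes for the replicate number and black lines for means. ITGA5, ITGA3 and ITGB1 stand above the other chains in both groups, and open points mark libraries at 0.

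Whether siAURKA changed these genes was tested within a fit to all genes. A filter on low counts left 35 of them among 18775 genes tested, and edgeR's quasi-likelihood test called 0 of the 35 and 0 of all genes (0%) at an adjusted p of 0.05. On simulated data this test called none of the changed genes, and here it did not call AURKA. Its 0 calls, and the adjusted p of 0.9999 given below for single genes, therefore do not show that a gene was unchanged. At an unadjusted p below 0.05 this test picked 237 of all genes and 1 of the 35, the low-level chain ITGA9. As ITGA9 had passed the low-count filter only through its siAURKA libraries, that pick is not read as evidence of a change. Limma-voom called 0 genes. With the replicate number as a block, edgeR and limma-voom again called 0 genes, whereas DESeq2 called 246 genes (1.31%) and 3 of the 35: LIMS1, higher in siAURKA, and ITGA3 and TLN2, lower. DESeq2 without the block called 17 genes and none of the 35. These 3 genes are therefore calls of 1 of the 6 combinations of tool and block. Leaving out the number-1 pair from the DESeq2 block fit left LIMS1 and added FBLIM1, leaving out the number-2 pair kept ITGA3 and TLN2, and leaving out the number-3 pair ended all of these calls.

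The groups did not overlap in CPM for 2 of the 35 genes, ITGA9 and LIMS1, both higher in siAURKA, and of these ITGA9 had passed the low-count filter through its siAURKA libraries. Over all genes tested the groups did not overlap for 5.85%, with 3.33% higher and 2.52% lower. The ratio siAURKA over siNC had 1 sign in all 3 same-numbered pairs for 5 genes above 0 and 8 genes below 0 on the log2 scale, that is 14.3% and 22.9% of the 35, against 17.9% and 17.6% of all genes. The 5 genes include ITGA9, whose direction the filter favoured. By edgeR's estimate 12 of the 35 had a log2 fold change above 0 and 23 below, with a median of -0.11 against -0.01 over all genes. The 12 include ITGA9 and ITGA10, which reached the filter's level in every siAURKA library but not in every siNC library. That tally was not stable. Without scaling beyond library totals it became 16 above and 19 below, and without siNC library 1 it became 20 above and 16 below of 36 tested, with a median of 0.08. Here and below, fits with a single library left out had no replicate block. The same-numbered partner of that library therefore stayed in unmatched, and such estimates also move with the library number. Fewer cells of a type and less RNA per cell cannot be told apart in such bulk libraries.

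**Figure D2:**
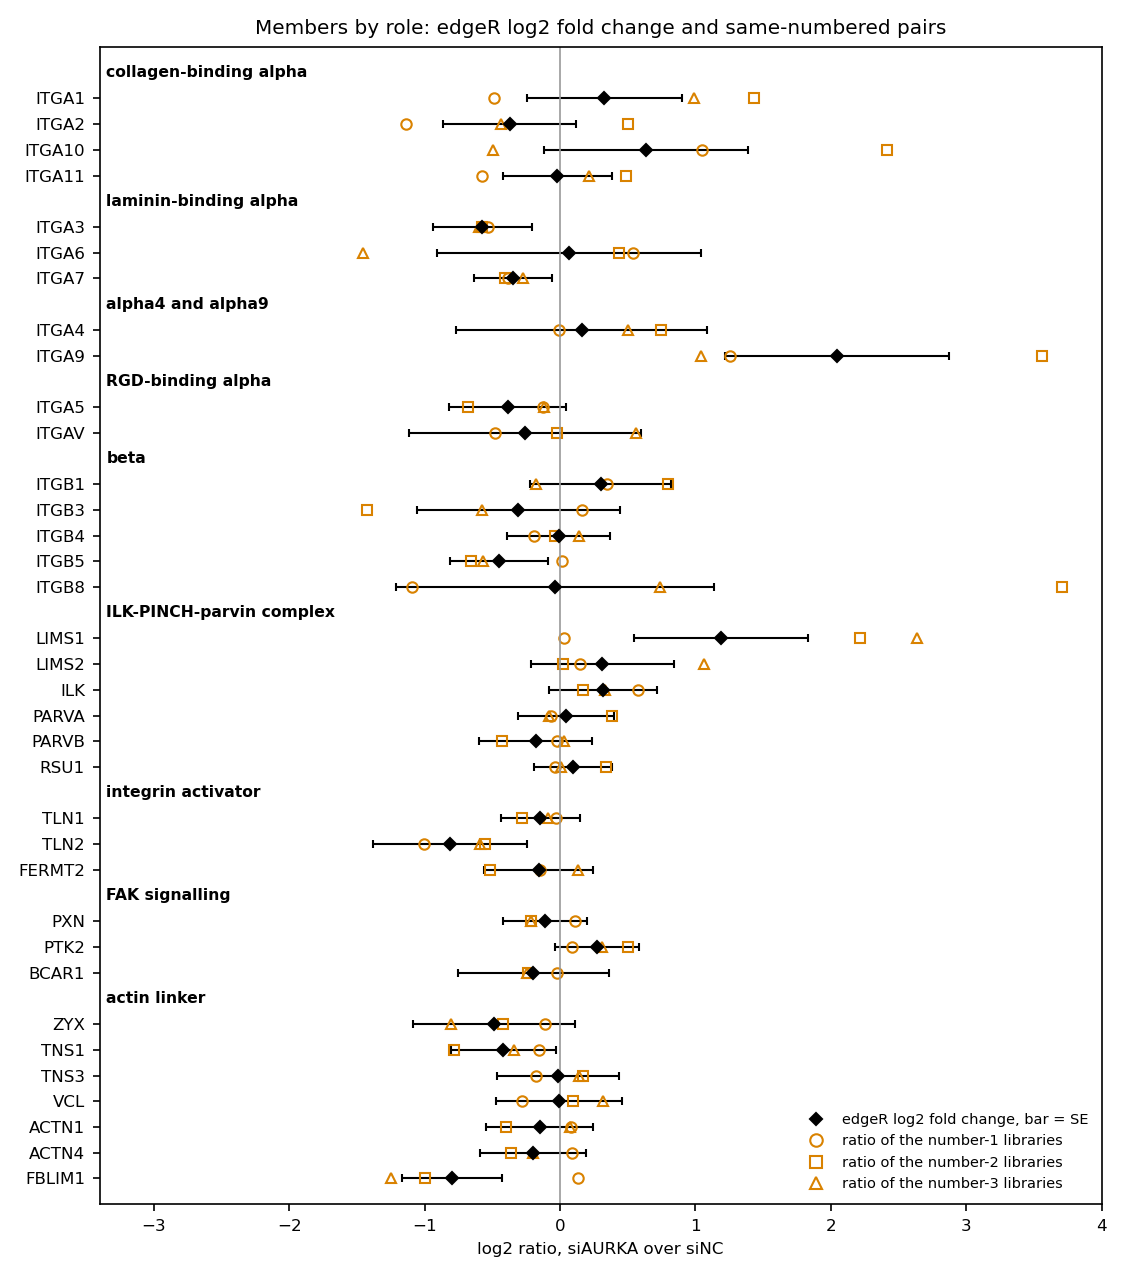
Log2 ratio of siAURKA over siNC for the 35 tested genes, ordered by role. Black diamonds and bars are edgeR log2 fold changes and SE, and orange symbols are the ratios within the number-1, number-2 and number-3 libraries. ITGA3, ITGA7 and TLN2 lie below 0 with all 3 pairs on the same side, while LIMS1 has its number-1 pair near 0 and the other pairs above 2.

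Of the laminin-binding alpha chains, ITGA3 (chromosome 17, 50055968 to 50090481, GRCh38) had 328, 606 and 404 CPM in siAURKA libraries 1, 2 and 3, against 474, 905 and 613 CPM in siNC libraries 1, 2 and 3. The groups overlapped, because library 2 was the highest in either group, but each siAURKA library was below its same-numbered siNC library by a similar factor. The pair ratios were -0.53, -0.58 and -0.60 on the log2 scale. The edgeR log2 fold change was -0.57 (SE 0.36, adjusted p = 0.9999). With the replicate block, DESeq2 gave -0.58 (SE 0.15, adjusted p = 0.0107) and edgeR gave -0.57 (SE 0.097, adjusted p = 0.549). Without the block, the edgeR estimate ran from -0.85 without siAURKA library 2 to -0.28 without siNC library 2.

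ITGA7, which pairs with β1 as the laminin receptor of muscle, had 44.1, 39.0 and 55.8 CPM in siAURKA libraries 1, 2 and 3, against 57.5, 51.7 and 67.4 CPM in siNC libraries 1, 2 and 3. Each siAURKA library was again below its siNC counterpart, and the groups overlapped. The log2 fold change was -0.35 (SE 0.29, adjusted p = 0.9999), or -0.51 to -0.23 with 1 library left out, and the DESeq2 block fit gave an adjusted p of 0.369. ITGA6, which forms α6β1 and the hemidesmosome receptor α6β4, had no common direction: its levels were 122, 13.5 and 19.6 CPM in siAURKA libraries 1, 2 and 3, against 84.3, 9.93 and 53.9 CPM in siNC libraries 1, 2 and 3. Its number-1 and number-2 ratios were 0.54 and 0.44 on the log2 scale and its number-3 ratio was -1.46.

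The collagen-binding alpha chains were low, apart from ITGA2, and none had 1 sign in all pairs. ITGA2 had 30.9, 49.8 and 19.0 CPM in siAURKA libraries 1, 2 and 3, against 68.1, 35.2 and 25.7 CPM in siNC libraries 1, 2 and 3. ITGA11, a collagen I receptor chain of fibroblasts, stayed at 2.81 to 3.43 CPM in siAURKA and 2.0 to 4.22 CPM in siNC. ITGA1 had 14.0, 12.2 and 11.2 CPM in siAURKA libraries 1, 2 and 3, against 19.6, 4.49 and 5.60 CPM in siNC libraries 1, 2 and 3. The siAURKA libraries were close together and the siNC libraries spread around them, as siNC library 1 was the highest of the 6 and the other siNC libraries the lowest. Its log2 fold change moved to 1.31 without siNC library 1 and to -0.01 without siNC library 2, against 0.33 (SE 0.57) with all libraries. ITGA10 stayed at 0.92 to 1.25 CPM in siAURKA and 0.191 to 1.37 CPM in siNC.

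ITGA9, a chain that with β1 binds tenascin and VCAM1, was the tested gene of the set with the lowest level. Its levels were 0.848, 1.12 and 0.401 CPM in siAURKA libraries 1, 2 and 3, against 0.325, 0.0477 and 0.168 CPM in siNC libraries 1, 2 and 3. All siAURKA libraries were above all siNC libraries. If 1 fragment were worth 4 units, which is not known, 3 fragments would correspond to 0.287, 0.514 and 0.341 CPM in siNC libraries 1, 2 and 3. Only siNC library 1 reached that level. The deposited ITGA9 counts were 14, 1 and 6 in siNC libraries 1, 2 and 3, so the fitted log2 fold change of 2.05 (SE 0.83) rests on very low counts in siNC. ITGA9 was tested only because it was high in siAURKA, since siNC libraries 2 and 3 lay below the level that the low-count filter asks for in 3 libraries. Its p-values are therefore not read as evidence of a change. The antisense gene ITGA9-AS1 overlaps 6.46% of its exonic bases, and whether strand was used in counting is not known. ITGA4, its relative that binds VCAM1 on other cells, had 9.90, 2.27 and 2.25 CPM in siAURKA libraries 1, 2 and 3, against 9.94, 1.34 and 1.57 CPM in siNC libraries 1, 2 and 3, so that library 1 was several times above the rest in either group.

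Of the chains whose receptors bind RGD ligands, ITGA5 had 467, 878 and 733 CPM in siAURKA libraries 1, 2 and 3, against 510, 1406 and 795 CPM in siNC libraries 1, 2 and 3. All pairs were lower in siAURKA, and the groups overlapped. The log2 fold change was -0.38 (SE 0.43, adjusted p = 0.9999) and turned to 0.09 without siNC library 2. ITGAV, the chain shared by the TGF-β-activating receptors, had 53.7, 13.1 and 15.9 CPM in siAURKA libraries 1, 2 and 3, against 74.8, 13.3 and 10.8 CPM in siNC libraries 1, 2 and 3. The library number set most of this range, and the pair ratios had mixed signs. ITGA8, known in the liver as a stellate cell chain, was at 0.0902, 0.498 and 0 CPM in siAURKA libraries 1, 2 and 3 and at 0 in all siNC libraries, and was removed by the filter.

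None of the tested beta chains had 1 sign in all pairs. ITGB1 had 979.6, 427 and 389 CPM in siAURKA libraries 1, 2 and 3, against 770.5, 246 and 441 CPM in siNC libraries 1, 2 and 3, with a log2 fold change of 0.30 (SE 0.52) that turned to -0.27 without siAURKA library 1. ITGB5, which with αv binds vitronectin, had 54, 70.1 and 46.7 CPM in siAURKA libraries 1, 2 and 3, against 53.3, 110.6 and 69.4 CPM in siNC libraries 1, 2 and 3. Its number-1 ratio was 0.02 and the others were -0.66 and -0.57 on the log2 scale. The log2 fold change of -0.45 (SE 0.36) shrank to -0.11 without siNC library 2. ITGB3 was at 3.07 to 16.8 CPM in siAURKA and 4.59 to 15.1 CPM in siNC, and 51.6% of its exonic bases lie in a gene annotated over it, AC068234.1, which was at 0 in all libraries but siAURKA library 3. ITGB4 had a log2 fold change of -0.01 (SE 0.38), and 0.06 without scaling. ITGB8 was at 0.622 to 2.14 CPM in siAURKA and 0 to 2.87 CPM in siNC, and ITGB6, removed by the filter, at 0.144 to 0.405 CPM in siAURKA and 0 to 0.573 CPM in siNC.

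LIMS1 encodes PINCH1, the LIM-domain adaptor that binds ILK and holds the ILK-PINCH-parvin complex together. It lies on the plus strand of chromosome 2, 108534355 to 108687246 (GRCh38), and RefSeq gives it 4 start sites. It is the only gene of the set that the DESeq2 block fit called as higher. The stretches before its first and last start sites are shown because they differ in base composition, and the one before the start of TLN2, called as lower, is set beside them. The first LIMS1 stretch and the TLN2 stretch end where the annotation has its first exon, and at 135 and 226 bases they are shorter than the full windows of 250 bases. Capitals mark a GC box (GGGCGG on either strand), the only motif searched for that these 3 stretches contain.
LIMS1, chr2:108534220-108534354, plus strand: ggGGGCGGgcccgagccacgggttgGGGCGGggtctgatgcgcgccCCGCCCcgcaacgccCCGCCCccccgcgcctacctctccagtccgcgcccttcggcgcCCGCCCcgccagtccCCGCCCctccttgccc
LIMS1, chr2:108588056-108588305, plus strand: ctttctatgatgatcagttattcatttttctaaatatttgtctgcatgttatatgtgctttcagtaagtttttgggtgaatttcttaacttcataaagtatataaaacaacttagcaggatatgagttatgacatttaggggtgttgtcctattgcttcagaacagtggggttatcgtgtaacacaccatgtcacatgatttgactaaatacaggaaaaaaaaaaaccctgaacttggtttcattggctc
TLN2, chr15:62390300-62390525, plus strand: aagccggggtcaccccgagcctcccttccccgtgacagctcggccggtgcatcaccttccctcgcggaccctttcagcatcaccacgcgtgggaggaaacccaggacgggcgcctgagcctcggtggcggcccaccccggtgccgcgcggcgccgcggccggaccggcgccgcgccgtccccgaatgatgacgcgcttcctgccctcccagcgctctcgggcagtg

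The sequences are from RefSeq (GRCh38.p14). The first LIMS1 stretch has 83% G and C and 6 GC boxes, the last has 33.2% and none, and the TLN2 stretch has 74.3% and none. The 250 bases before the second LIMS1 start, with 49.2%, hold 1 AP-1 motif (TGANTCA), and those before the third hold none of the motifs. The files do not tell which start these cells use. Of 35116 RefSeq windows of 250 bases before a start, 42.6% hold a GC box, 6.57% an AP-1 motif, 11.9% a TEAD motif (GGAATG on either strand) and 1.16% a CArG box, the motif of serum response factor. Windows were given for 30 of the 37 genes, and of their 59 windows 52.5%, 5.08%, 13.6% and 6.78% hold these motifs. The CArG boxes were in the windows of ACTN1, FBLIM1, ITGB6 and RSU1. Matches describe letters and not binding.

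LIMS1 had 47.6, 54.5 and 49.3 CPM in siAURKA libraries 1, 2 and 3, against 46.7, 11.7 and 7.87 CPM in siNC libraries 1, 2 and 3. The siAURKA libraries were alike, siNC library 1 was just below them, and siNC libraries 2 and 3 were far below. The number-1 ratio was 0.03 on the log2 scale, while the number-2 and number-3 ratios were 2.22 and 2.64. By edgeR the log2 fold change was 1.19 (SE 0.64, adjusted p = 0.9999), and it ran from 0.80 without siNC library 3 to 2.38 without siNC library 1. The DESeq2 block fit gave 1.65 (SE 0.48, adjusted p = 0.0373) and edgeR with the block gave 1.655 (SE 0.567, adjusted p = 0.570). Limma-voom with the block gave an adjusted p of 0.519. The 2-sided exact permutation p was 0.1, the smallest that groups of 3 can give. The near-identical copies LIMS3 and LIMS4, with which reads could be shared, were at 1.53 to 4.15 and 1.68 to 5.43 CPM in siAURKA and at 1.10 to 5.19 and 1.48 to 6.91 CPM in siNC, lower than LIMS1 in each library, and in either group library 1 was their highest.

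LIMS2, encoding PINCH2, had 38.9, 94.2 and 62.9 CPM in siAURKA libraries 1, 2 and 3, against 35.1, 92.9 and 30.1 CPM in siNC libraries 1, 2 and 3. Every pair was higher in siAURKA, with ratios of 0.15, 0.02 and 1.06, and the log2 fold change was 0.31 (SE 0.53, adjusted p = 0.9999), or -0.04 without siAURKA library 2 and 1.01 without siNC library 2. Per kb, LIMS1 made up 57.2%, 38.7% and 46.1% of the PINCH RNA in siAURKA libraries 1, 2 and 3, against 59.2%, 12.1% and 22.2% in siNC libraries 1, 2 and 3. LIMS2 was thus the larger part in libraries 2 and 3 of either group, at 61.3% and 53.9% in siAURKA and 87.9% and 77.8% in siNC. In library 1 of either group LIMS1 was the larger part.

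ILK, the scaffold pseudokinase of the complex, had 146, 242 and 260.1 CPM in siAURKA libraries 1, 2 and 3, against 97.6, 216 and 207 CPM in siNC libraries 1, 2 and 3. Every pair was higher in siAURKA, the groups overlapped, and the log2 fold change was 0.32 (SE 0.40, adjusted p = 0.9999). It shrank to 0.0349 without siNC library 1 and was 0.53 without siAURKA library 1. Since 78.5% of the exonic bases of ILK lie inside exons of other genes, mainly the opposite-strand gene TAF10 at 112 CPM in siAURKA and 93.1 CPM in siNC, this value may hold reads of its neighbours. PARVA and PARVB, the parvins that bind ILK, had log2 fold changes of 0.04 (SE 0.36) and -0.18 (SE 0.42). RSU1, a PINCH1-binding suppressor of Ras signalling, had 0.10 (SE 0.29). These 3 genes had mixed pair signs. Of the complex's 6 genes 5 had log2 fold changes above 0 and 1 below, but those of LIMS2, PARVA, PARVB and RSU1 changed sign when single libraries were left out.

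**Figure D3:**
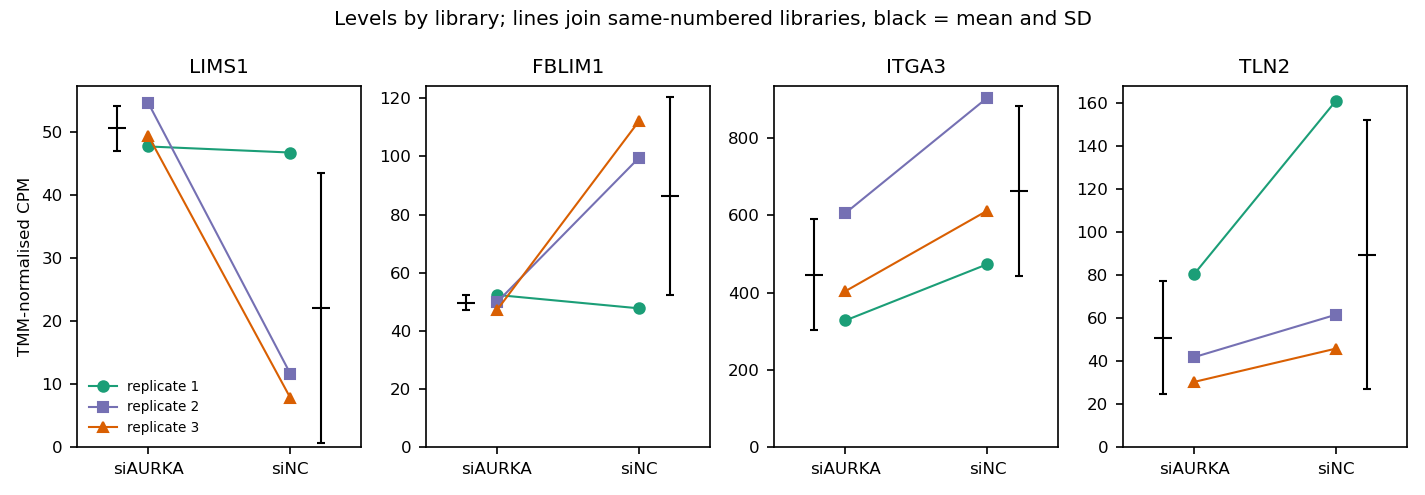
TMM-normalised CPM of LIMS1, FBLIM1, ITGA3 and TLN2 in siAURKA (left) and siNC (right) libraries. Coloured lines join same-numbered libraries, and black marks show the mean and SD of 3. For LIMS1 and FBLIM1 the siNC library 1 lies at the siAURKA level and the other siNC libraries lie below it (LIMS1) or above it (FBLIM1), whereas every siAURKA library lies below its same-numbered siNC library for ITGA3 and TLN2.

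Of the activators, TLN2, the talin best known from muscle and brain, had 80.5, 42.0 and 30.4 CPM in siAURKA libraries 1, 2 and 3, against 161, 61.7 and 46.0 CPM in siNC libraries 1, 2 and 3. The groups overlapped because library 1 was the highest in either, but every pair was lower in siAURKA, with ratios of -1.0, -0.56 and -0.59. The log2 fold change was -0.81 (SE 0.57, adjusted p = 0.9999) and ran from -1.32 without siAURKA library 1 to -0.07 without siNC library 1. The DESeq2 block fit gave -0.73 (SE 0.19, adjusted p = 0.0157), and edgeR with the block gave -0.72 (SE 0.147, adjusted p = 0.552). TLN1, the talin of most cells, made up 93.9% to 97.2% of the talin RNA per kb in siAURKA and 88.7% to 96.6% in siNC. It had 773, 889.8 and 642 CPM in siAURKA libraries 1, 2 and 3, against 788, 1080 and 684 CPM in siNC libraries 1, 2 and 3, and a log2 fold change of -0.15 (SE 0.29), or 0.07 without siNC library 2. FERMT2, encoding kindlin-2, had -0.16 (SE 0.40) with mixed pair signs.

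PTK2, the gene of FAK, had 88.7, 68.1 and 84.8 CPM in siAURKA libraries 1, 2 and 3, against 83.5, 48.1 and 68.4 CPM in siNC libraries 1, 2 and 3. Every pair was higher in siAURKA, and the log2 fold change was 0.27 (SE 0.31, adjusted p = 0.9999), or 0.09 without siNC library 2 and 0.47 without siNC library 1. The adaptors lay on the other side of 0: paxillin (PXN) had a log2 fold change of -0.11 (SE 0.31) and p130Cas (BCAR1) had -0.20 (SE 0.56), with all pairs lower for BCAR1. Either estimate turned positive without siNC library 2, to 0.13 and 0.42. The opposite-strand gene PXN-AS1, at 220.1 CPM in siAURKA and 215 CPM in siNC, shares 12.4% of the exonic bases of PXN.

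All 7 actin linkers had a log2 fold change below 0 by edgeR, from -0.80 to -0.01, though those of VCL and TNS3 were above 0 without scaling and those of VCL, ZYX, ACTN1 and ACTN4 were above 0 without siNC library 2. None was called by edgeR. FBLIM1 encodes migfilin, which joins kindlin-2 to filamin. It had 52.4, 49.9 and 47.2 CPM in siAURKA libraries 1, 2 and 3, against 47.8, 99.5 and 112 CPM in siNC libraries 1, 2 and 3. As for LIMS1, the siAURKA libraries and siNC library 1 were alike and the other siNC libraries stood apart, here above them. The log2 fold change was -0.80 (SE 0.37, adjusted p = 0.9999), or -1.08 to -0.56 with 1 library left out, and the DESeq2 block fit gave an adjusted p of 0.312, which passed only when the number-1 pair was left out.

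ZYX, the gene of zyxin, a protein of mature adhesions and stress fibres, had 188, 613 and 283 CPM in siAURKA libraries 1, 2 and 3, against 203, 821 and 495 CPM in siNC libraries 1, 2 and 3. Every pair was lower in siAURKA, and edgeR estimated -0.49 on the log2 scale (SE 0.60, adjusted p = 0.9999), but the library number moved ZYX more than the group did, and without siNC library 2 the estimate was 0.05. TNS1, encoding a tensin that binds β tails and actin, had 186, 123 and 89.0 CPM in siAURKA libraries 1, 2 and 3, against 207, 212 and 113 CPM in siNC libraries 1, 2 and 3. Every pair was lower, and the log2 fold change was -0.42 (SE 0.39, adjusted p = 0.9999), or -0.75 without siAURKA library 1 and -0.20 without siAURKA library 3. Vinculin (VCL) had -0.01 (SE 0.46), the tensin TNS3 -0.01 (SE 0.45), and the alpha-actinins ACTN1 and ACTN4 had -0.15 (SE 0.40) and -0.20 (SE 0.39).

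Most of the variation in the 35 genes went with the library number and not with the group. In a split of each gene's sum of squares of log2 CPM, a median of 83.5% went with the replicate number and 7.65% with the group, against 74.1% and 7.07% over all genes. The replicate number has more levels than the group, so on average it takes a larger share even where neither has an effect. The group share exceeded the number share in 4 of the 35 genes (ITGA9, ITGA10, LIMS1 and FBLIM1), or 11.4%, and in 12.4% of all genes. Of these, ITGA9 had passed the low-count filter only through its siAURKA libraries. ITGA10 had 0.417, 0.191 and 1.37 CPM in siNC libraries 1, 2 and 3, of which library 2 lay below the filter's level. The shares of ITGA9 and ITGA10 are therefore not read as an effect of the group. The number-1 libraries were the highest for 17 genes, among them ITGAV, ITGA6, ITGA4, ITGB1 and ITGB3, the number-2 libraries for 13, among them ZYX, BCAR1, ITGA5, ITGA3 and both alpha-actinins, and the number-3 libraries for 5.

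**Figure D4:**
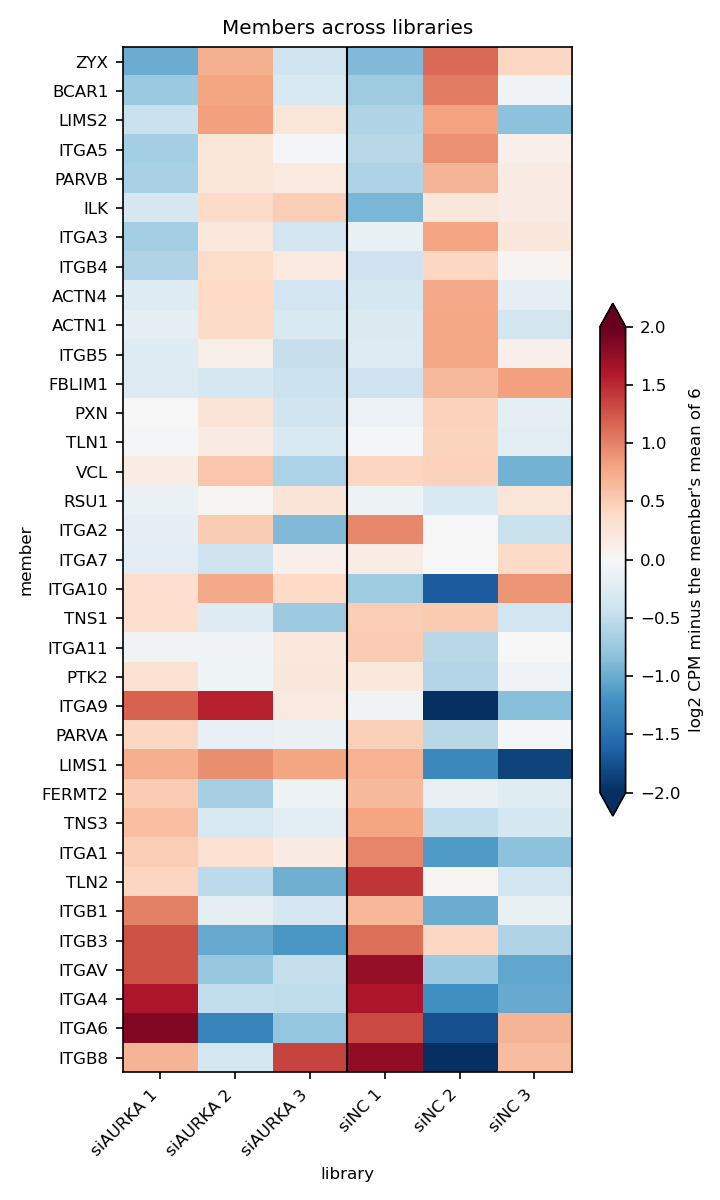
Log2 CPM of the 35 tested genes in each library minus the gene's mean over 6 libraries, with siAURKA left and siNC right of the black line. Genes are sorted by the difference between the number-1 and the number-2 libraries. The top block is high in the number-2 libraries and the bottom block high in the number-1 libraries of both groups, and LIMS1 is low in siNC libraries 2 and 3.

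The difference between the number-1 and number-2 libraries went with GC content, with exceptions such as TNS3, TLN2 and ITGB3. Differences from the number-3 libraries were not set against GC content. Over the 35 genes, the GC content of the longest transcript correlated with the log2 difference between number-1 and number-2 libraries at Pearson r = -0.73 (Spearman rho = -0.75), and over 18717 genes at r = -0.47. With the difference between siAURKA and siNC the correlation was r = -0.40 over the 35 genes and -0.19 over all genes. Genes are not independent replicates, and all points share the same 6 libraries. ITGB8, ITGAV and ITGB1 have 37.8%, 38.3% and 40% GC, and ZYX and BCAR1 have 64.9% and 63.1%. Of the genes called with the block, LIMS1, higher in siAURKA, has 41.1%, and TLN2 and ITGA3, lower in siAURKA, have 52.9% and 61.3%. The part of GC content in these results was not tested.

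**Figure D5:**
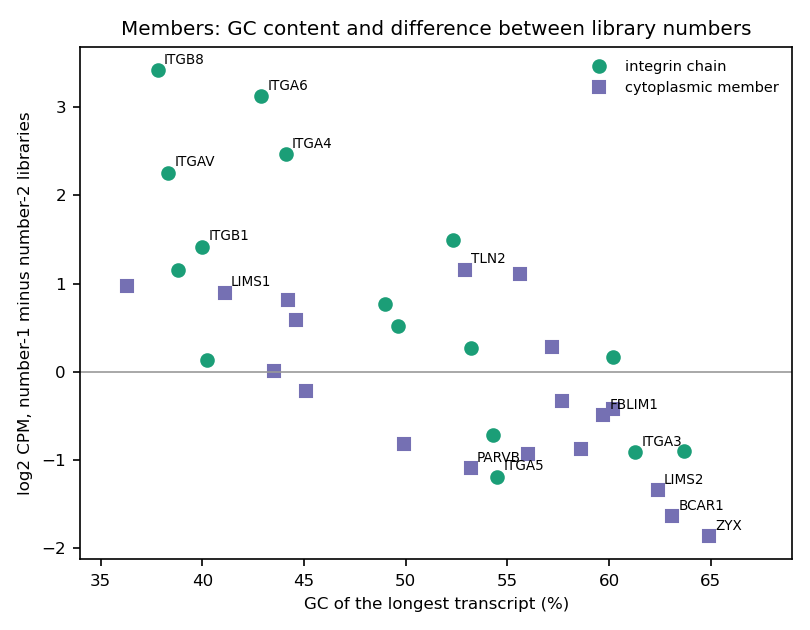
GC content of the longest transcript (x, percent) against the mean log2 CPM of the number-1 libraries minus that of the number-2 libraries (y) for the 35 tested genes, integrin chains as circles and cytoplasmic proteins as squares. Low-GC chains such as ITGB8 and ITGA6 lie high and high-GC genes such as ZYX and BCAR1 lie low (Pearson r = -0.73).

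Beyond the 37 genes, a wider list of 73 adhesion genes had 68 tested, with 34 log2 fold changes above 0 and 34 below and a median of 0.00 against -0.01 over all genes. The edgeR test called 0 of them, also at an unadjusted p below 0.05. The DESeq2 block fit called 3 of the 68, all higher in siAURKA: NEXN, SORBS3 and YES1 (over all genes it called 1.31%). Leaving out the number-1 pair left only NEXN called, leaving out the number-2 pair kept all 3, and leaving out the number-3 pair left none. NEXN, an actin-binding protein of adhesions, had 34.9, 13.9 and 20.4 CPM in siAURKA libraries 1, 2 and 3, against 21.8, 1.58 and 7.51 CPM in siNC libraries 1, 2 and 3, with a log2 fold change of 1.16 by edgeR (SE 0.82), from 0.66 without siNC library 2 to 2.34 without siNC library 1, and an adjusted p of 0.0224 by DESeq2 with the block. YES1, a Src-family kinase, had 324, 121 and 124 CPM in siAURKA libraries 1, 2 and 3, against 213, 78.6 and 69.1 CPM in siNC libraries 1, 2 and 3, with a log2 fold change of 0.66 by edgeR (SE 0.58), from 0.0122 without siAURKA library 1 to 1.37 without siNC library 1, and an adjusted p of 0.0079 by DESeq2 with the block. SORBS3, the gene of the vinculin-binding adaptor vinexin, had 156, 369 and 231 CPM in siAURKA libraries 1, 2 and 3, against 89.4, 263 and 140 CPM in siNC libraries 1, 2 and 3, with a log2 fold change of 0.62 by edgeR (SE 0.48), from 0.24 without siAURKA library 2 to 1.14 without siNC library 2, and an adjusted p of 0.0163 by DESeq2 with the block. Each pair of these 3 genes was higher in siAURKA, while the groups overlapped, since library 1 was the highest in either group for NEXN and YES1 and library 2 for SORBS3. Of the others, LPP and CAV1 had log2 fold changes of 0.54 (SE 0.40) and 0.49 (SE 0.40), and CSRP1 and NEDD9 had -0.60 (SE 0.46) and -0.44 (SE 0.35), with no call by any of the tools. With 1 library left out these ran from 0.24 to 0.93 for LPP, 0.18 to 0.86 for CAV1 and -0.65 to -0.19 for NEDD9, and that of CSRP1 was 0.0233 without siNC library 2.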

How the data were processed

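The authors deposited a table of whole-number estimated counts for 58243 Ensembl identifiers in 6 libraries, 3 siAURKA and 3 siNC. The submitters' processing notes name HISAT2 and the build GRCh38. Which program counted the reads, with which annotation and whether by strand, is not given in the sources used here. Of the deposited estimated counts from 1 to 24 in a library, 30.3% to 34% were multiples of 4, where 25% would be even. Most of these values were thus not multiples of 4, and how many units 1 fragment is worth is not known. If it were 4 units, totals would be 5841560 to 13339350 and 3 fragments would equal 0.225 to 0.514 CPM, for counting error only. Since the values are whole, rounding altered nothing.

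Identifiers were matched to GENCODE release 29 (57980 matched, 263 did not, at most 0.0292% of a library), which gave symbols, coordinates, exon lengths and overlaps. The main test, on samples grouped by their labels, was edgeR's quasi-likelihood test with TMM scaling, the default filterByExpr filter, no covariate, and Benjamini-Hochberg adjustment over all 18775 genes tested at 0.05. Alternatives were DESeq2, limma-voom, a replicate block, other scalings and filters, division by 4, and leaving out each library. The replicate numbers of the labels were taken to pair the libraries, since same-numbered libraries' deviations from their group means correlated at 0.647, 0.477 and 0.302, against -0.525 to 0.0396 for other combinations. Fits were tested on simulated data, where DESeq2 with the block made false calls more often than its threshold and edgeR without the block called none of the changed genes. The fits ran in R 4.3.3 (DESeq2 1.42.0, limma 3.58.1, edgeR 4.0.16), and figures and sequence searches in Python 3.11.15 (matplotlib 3.10.9, numpy 2.4.6, pandas 2.3.3).

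The 37 genes, the lists and the tests were chosen with earlier results of these data known. Genes were named where any fit called them, where the groups did not overlap, where all same-numbered pairs had 1 sign with an absolute log2 fold change of 0.3 or more, where they form an expressed heterodimer, or where they averaged below 1 CPM. Others are named with their values. Of the wider list, genes called by any fit and the 4 next smallest edgeR p-values are named. Pair ratios used log2 CPM with a prior count of 2, and SE of edgeR estimates were derived from the F statistic.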

Additional observations from a re-analysis of the deposited data

How the results depend on the processing

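The count of genes called was 0 by edgeR and stayed 0 under another scaling, no or a stricter filter, division by 4, limma-voom and the replicate block of edgeR or limma-voom. DESeq2 called 17 genes and, with the replicate block, 246. In that block fit, leaving out pairs 1, 2 and 3 gave 122, 279 and 61 genes. Leaving out 1 library from the edgeR test gave 0 to 2 genes, the 2 without siAURKA replicate 2. Of the set, 3 genes were called by DESeq2 with the replicate block, 2 without pair 1 and 2 without pair 2, and 0 in the other fits. The block changed no call of edgeR or limma-voom. Expressed heterodimers numbered 8 at 5 CPM, 13 without siNC replicate 2 and 12 otherwise.

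Log2 fold changes that changed sign were those of genes near 0 or with wide spread, and the cause was not tested. The fits with 1 library left out had no replicate block, so the same-numbered partner of that library stayed in unmatched. In these, 24 of 35 genes changed sign at least once. With pair 1, 2 or 3 left out of the DESeq2 block fit, 8, 7 and 1 genes did. With the replicate block, edgeR gave -0.15 for ITGA6, 0.0341 for ITGA11, 0.016 for ITGAV, 0.64 for ITGB8, 0.0428 for TNS3 and 0.0459 for VCL. DESeq2 with the replicate block gave -0.16 for ITGA6, 0.0189 for ITGA11, 0.000411 for ITGAV, 1.01 for ITGB8, 0.0271 for TNS3 and 0.0306 for VCL. Limma-voom gave -0.18 for ITGA6, 0.00755 for ITGAV, 0.91 for ITGB8, 0.0353 for TNS3 and 0.0469 for VCL. Limma-voom with the replicate block gave -0.12 for ITGA6, 0.0115 for TNS3 and 0.0273 for VCL. Without scaling beyond library totals, edgeR gave 0.0174 for ITGA11, 0.0567 for ITGB4, 0.0229 for TNS3 and 0.0483 for VCL. Without the low-count filter it gave 0.0121 for ITGA11, 0.021 for ITGB4, 0.0252 for TNS3 and 0.03 for VCL. The stricter filter gave 0.000462 for VCL. DESeq2 with the replicate block and without the number-1 pair gave 0.0109 for ITGA2, -0.54 for ITGA6, 0.34 for ITGA11, 0.25 for ITGAV, 0.0304 for ITGB4, 2.65 for ITGB8, 0.13 for TNS3 and 0.19 for VCL. Without the number-2 pair it gave -0.46 for ITGA6, 0.0304 for ITGAV, -0.0761 for PARVA, 0.00236 for PARVB, -0.0162 for RSU1, 0.019 for VCL and 0.0764 for ACTN1. Without the number-3 pair it gave 1.42 for ITGB8. DESeq2 without the block, RLE scaling and division by 4 turned no sign among the genes they tested. With 1 library left out, 24 genes changed sign at least once: the estimates ran from -0.39 to 0.32 for ACTN1, -0.48 to 0.23 for ACTN4, -0.77 to 0.42 for BCAR1, -0.51 to 0.19 for FERMT2, -0.0116 to 1.31 for ITGA1, -0.24 to 0.29 for ITGA11, -0.78 to 0.13 for ITGA2 and -0.95 to 1.74 for ITGA4; from -0.67 to 0.0884 for ITGA5, -1.59 to 0.71 for ITGA6, -1.20 to 1.21 for ITGAV, -0.27 to 0.81 for ITGB1, -1.58 to 0.19 for ITGB3, -0.20 to 0.23 for ITGB4, -0.59 to 1.06 for ITGB8 and -0.0434 to 1.01 for LIMS2; and from -0.18 to 0.35 for PARVA, -0.45 to 0.17 for PARVB, -0.27 to 0.13 for PXN, -0.0193 to 0.27 for RSU1, -0.28 to 0.067 for TLN1, -0.38 to 0.52 for TNS3, -0.33 to 0.25 for VCL and -1.10 to 0.0529 for ZYX. Where a group had 2 libraries left, its spread was taken from the pooled fit. Levels under about 0.5 CPM are limited by depth.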

Other observations

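LIMS1 and FBLIM1 share a library pattern that was noticed after their values were seen, and the limits that define it were set after that. The shares over all genes are therefore no measure of how unusual LIMS1 and FBLIM1 are. In either gene the 3 siAURKA libraries lie within 0.5 of each other on the log2 scale, siNC library 1 lies within 0.3 of their mean, and the other siNC libraries lie at least 0.9 away on the same side. Over all tested genes, 23 (0.123%) had this pattern with siNC library 1 as the near library, 5 (0.0266%) with siNC library 2 and 16 (0.0852%) with siNC library 3. LIMS1 and FBLIM1 were the only genes of the set among them. LIMS1 lay below and FBLIM1 above the siAURKA level in siNC libraries 2 and 3.

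Among integrin chains outside the set, ITGAE, the partner of β7, had 15.7 to 28.1 CPM in siAURKA and 14.4 to 27.1 CPM in siNC, and ITGA2B, the platelet chain, had 6.26 to 13.7 CPM in siAURKA and 4.22 to 11.8 CPM in siNC, while the leukocyte chain ITGB2 stayed at 0.654 to 0.757 CPM in siAURKA and 0.464 to 1.15 CPM in siNC. The alpha-actinin share was steady: ACTN4 made up 70.4%, 71.4% and 70% of the ACTN1 and ACTN4 level per kb in siAURKA libraries 1, 2 and 3, against 70.3%, 70.9% and 73.8% in siNC libraries 1, 2 and 3. The parvin share moved with the library number, as PARVA made up 71.2%, 46.9% and 48.7% of the PARVA and PARVB level per kb in siAURKA libraries 1, 2 and 3, against 71.8%, 33.5% and 50.6% in siNC libraries 1, 2 and 3.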
